A study of Drosophila melanogaster with 13 samples.

Results

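The odorant receptor (Or) genes of *Drosophila melanogaster* were followed in RNA-seq of adult fly heads. A gene was taken as a member when its symbol begins with Or followed by a number and a letter, or is *Orco*. This rule found 60 of the 15682 genes in the count files. Heads came from 2 experiments on the histone methyltransferases trr, the fly ortholog of KMT2C and KMT2D, and G9a, the fly ortholog of EHMT1. The question of the study was what happens to gene expression in the head when either enzyme is reduced. There were 2 libraries labelled *trr* knockdown and 2 *trr* controls, and 3 libraries labelled *G9a* mutant and 3 *G9a* controls.

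The flies labelled *trr* knockdown carried Elav-Gal4/+, dicer2/+ and the RNAi insertion P{TRiP.HMS01019}attP2/+, and their controls carried the same driver and dicer2 with P{y[+t7.7]=CaryP}attP2/+ in place of the RNAi. The driver is pan-neuronal, so cells other than neurons were not targeted, and controls carried the driver and dicer2 too. The flies labelled *G9a* mutant were G9aDD1, and their controls were *G9a*+/+ flies from a precise excision. All flies were 0 to 5 days old by the labels. Heads of frozen flies were shaken off by vortexing and collected with sieves, so each library pools many heads, and the replicates are described as biological. How the sexes were divided was not given.

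A typical olfactory neuron of the fly expresses 1 odorant-specific receptor, which forms an ion channel together with the co-receptor Orco. These neurons sit in hair-like sensilla on the antenna and the maxillary palp of the adult, and in the dorsal organ of the larva, and each receptor is known from a small set of neurons at 1 or a few of these sites. Odorant-binding proteins, released by support cells, fill the fluid of the sensilla. A second receptor family, the ionotropic receptors, serves coeloconic sensilla. The members comprised the co-receptor *Orco*, 26 receptors known from antennal basiconic sensilla, 12 from trichoid and intermediate sensilla, 1 from coeloconic sensilla, 7 from the maxillary palp and 13 known mainly from the larval organ.

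Each library held between 18114408 and 28171883 reads assigned to genes. A floor of 3 counts, the upper limit that a count of 0 allows, lay between 0.106 and 0.166 counts per 1000000 gene counts (CPM) in a single library, and it covers counting error only. Neither targeted gene was detectably lower where its loss was labelled. *trr* had 2651 and 2265 counts in libraries labelled *trr* knockdown, against 1964 and 2589 in *trr* controls (log2 fold change 0.12, edgeR p-adj = 0.679). *G9a* had 1526, 1732 and 1547 counts in libraries labelled *G9a* mutant, against 1087, 1208 and 1011 in *G9a* controls (log2 fold change 0.27, edgeR p-adj = 0.188). The wording "labelled" is kept for this reason. By RT-qPCR on a separate biological replicate, the study reported lower *trr* mRNA in whole heads with pan-neuronal knockdown. Whole heads also hold cells that were not targeted. Whether the *G9a* reads lie outside the deleted sequence was not tested. Photoreceptor RNA was abundant, with the opsin gene *ninaE* at 2.53% to 5.50% of gene counts.

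Odorant receptor reads were scarce in every library. Summed over all 60 members they came to 22.1 and 22.4 CPM in the libraries labelled *trr* knockdown, against 26.2 and 38.1 CPM in the *trr* controls. They came to between 52.1 and 56.7 CPM in the libraries labelled *G9a* mutant, against 47.5 to 51.3 CPM in the *G9a* controls. The 10 libraries therefore held between 583 and 1435 odorant receptor reads each. The sums were lower in all 4 libraries of the *trr* experiment than in all 6 of the *G9a* experiment. Without the 5 members with the most reads, this order did not hold. The other 55 members summed to between 6.46 and 7.28 CPM in the *trr* experiment. They summed to between 5.44 and 6.29 CPM in libraries labelled *G9a* mutant, and to between 8.28 and 8.84 CPM in *G9a* controls.

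**Figure D1:**
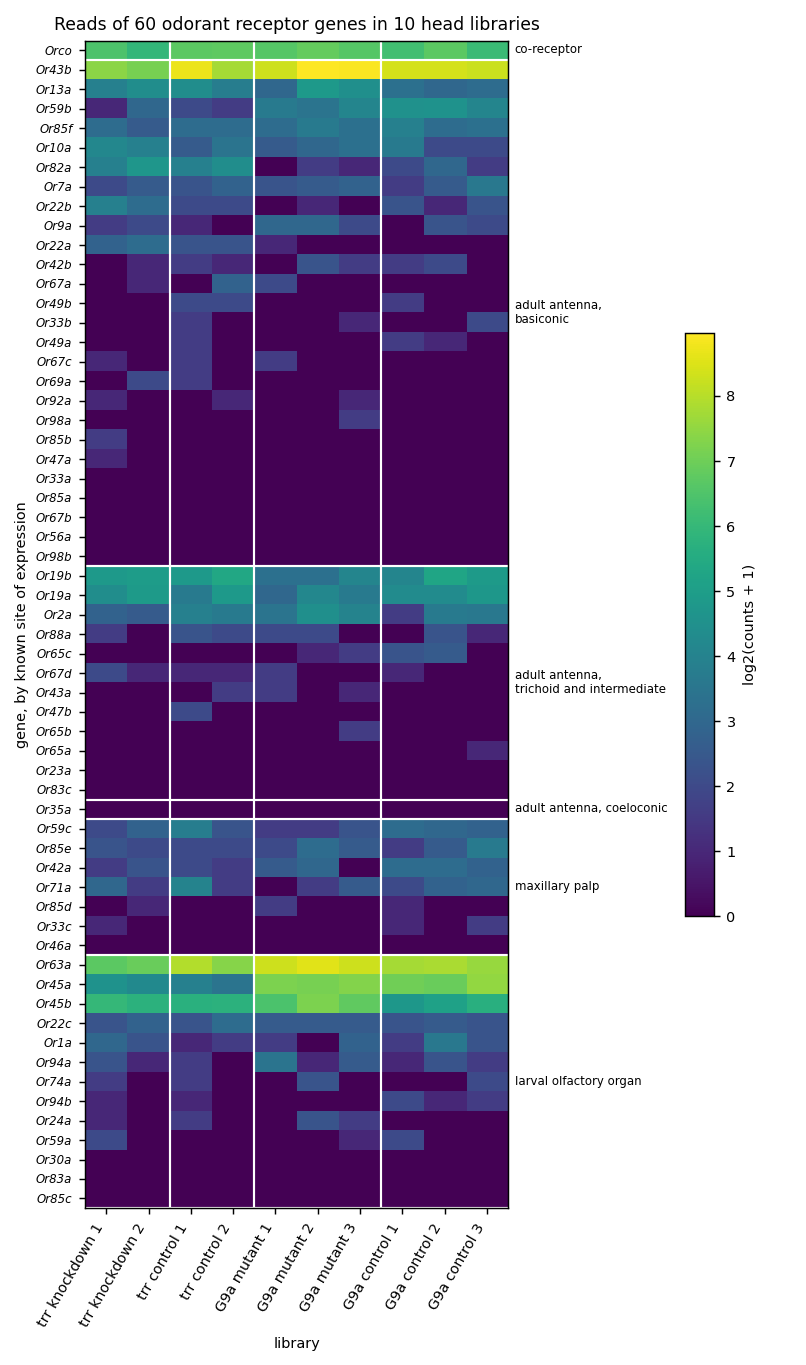
Reads of each of the 60 odorant receptor genes (rows, grouped by the site where the receptor is known to be expressed) in each of the 10 head libraries (columns), as log2(counts + 1). A few bright rows, *Or43b*, *Or63a*, *Or45a*, *Orco* and *Or45b*, hold most of the reads, and 12 rows are dark in all 10 libraries.

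The reads were unevenly divided among the members. *Or43b* (FBgn0026393), *Or63a* (FBgn0035382), *Or45a* (FBgn0033404), *Orco* (FBgn0037324) and *Or45b* (FBgn0033422) together held between 67.1% and 89.6% of odorant receptor reads in a library, with a mean of 80.9%. *Or43b*, the receptor of a basiconic neuron, held between 23.7% and 41.4% and took the most reads in 9 of the 10 libraries. In library 1 labelled *G9a* mutant it had 311 counts and *Or63a* had 312. These 5 genes were also the only members with at least 10 counts in every library.

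In all, 12 of the 60 members, or 20%, were at 0 in all 10 libraries, compared with 7.19% of all genes. With 239287364 gene counts over the 10 libraries, a count of 0 allows a level of up to 0.0125 CPM. They were *Or46a* of the palp, *Or35a*, the receptor of coeloconic sensilla, *Or23a* and *Or83c* of trichoid and intermediate sensilla, *Or33a*, *Or56a*, *Or67b*, *Or85a* and *Or98b* of basiconic sensilla, and *Or30a*, *Or83a* and *Or85c* of the larva. Another 25 members had reads, but fewer than 3 per library on average, so that 37 of the 60 averaged under 3 counts.

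More than 3 counts in every library were reached by 10 of the 60 members, or 16.7%, compared with 62.8% of all genes. These were *Or43b*, *Or63a*, *Or45a*, *Orco*, *Or45b*, *Or19b*, *Or19a*, *Or13a*, *Or85f* and *Or22c*. Within groups the number was 16 in libraries labelled *trr* knockdown and 16 in *trr* controls, and 14 in libraries labelled *G9a* mutant and 13 in *G9a* controls. Of all genes, 69.0% and 67.5% passed in these *trr* groups, and 66.9% and 66.1% in these *G9a* groups. The *G9a* groups hold more libraries, each with fewer gene counts, so the same limit is harder to pass there. With any read above 0 counting as detection, the number was 25 in libraries labelled *trr* knockdown and 26 in *trr* controls, and 18 in libraries labelled *G9a* mutant and 23 in *G9a* controls. The differences between groups were not tested.

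Several well-studied antennal receptors had few or no reads. *Or67d*, the receptor for the male pheromone cis-vaccenyl acetate, had 3 and 1 counts in libraries labelled *trr* knockdown, against 1 and 1 in *trr* controls. It had 2, 0 and 0 counts in libraries labelled *G9a* mutant, against 1, 0 and 0 in *G9a* controls. *Or47b*, a receptor involved in male courtship, had 3 counts in *trr* control 1 and 0 in the 9 other libraries. *Or42b* and *Or92a*, which are known from the same large basiconic sensillum and serve attraction to vinegar, had at most 4 and 1 counts. These receptors were at or near the floor in every group.

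Of the 5 members with the most reads, 3 (*Or63a*, *Or45a* and *Or45b*) are known mainly from the larval organ. The 13 receptors of that class summed to 7.53 and 7.69 CPM in libraries labelled *trr* knockdown, against 8.40 and 12.1 CPM in *trr* controls. They summed to between 24.3 and 27.5 CPM in libraries labelled *G9a* mutant, against 19.0 to 21.5 CPM in *G9a* controls. The 39 receptors known from the adult antenna summed to 11.1 and 11.5 CPM in libraries labelled *trr* knockdown and to between 13.6 and 24.8 CPM in the others, and *Or43b* alone gave between 5.23 and 19.8 CPM. The 7 receptors of the palp came to between 0.393 and 1.63 CPM over the 10 libraries. Reads assigned to receptors known mainly from larvae were thus a large part of the odorant receptor reads in these libraries of adult heads. In the Release 6 annotation, *Or45a* overlaps *CG13954* and *CG13739*, *Or45b* overlaps an antisense RNA gene, and *Or63a* overlaps no other gene. Whether reads of overlapping genes were counted among those of *Or45a* or *Or45b* was not tested.

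The summed reads of antennal support genes were low as well. The 10 antennal support and odorant-binding genes summed to between 10.6 and 26.9 CPM over the 10 libraries, against a range of 59009 to 96389 CPM for 13 photoreceptor genes and of 4932 to 6253 CPM for 8 neuronal genes. *Obp84a* had at most 2 counts in a library. *lush*, the odorant-binding protein gene needed for the response to cis-vaccenyl acetate, had between 5 and 29 counts. *Ir8a*, a co-receptor of the ionotropic receptors, had between 0 and 6 counts. Other olfactory genes had more reads, with 143 to 301 counts of *Obp28a* and 73 to 124 of *Ir25a*. The 2 pheromone and neuron accessory genes, *Snmp1* and *ATP8B*, summed to between 112 and 180 CPM over the 10 libraries. Most of this was *ATP8B*, and *Snmp1* had between 53 and 138 counts. How much antenna each library held was not tested.

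**Figure D2:**
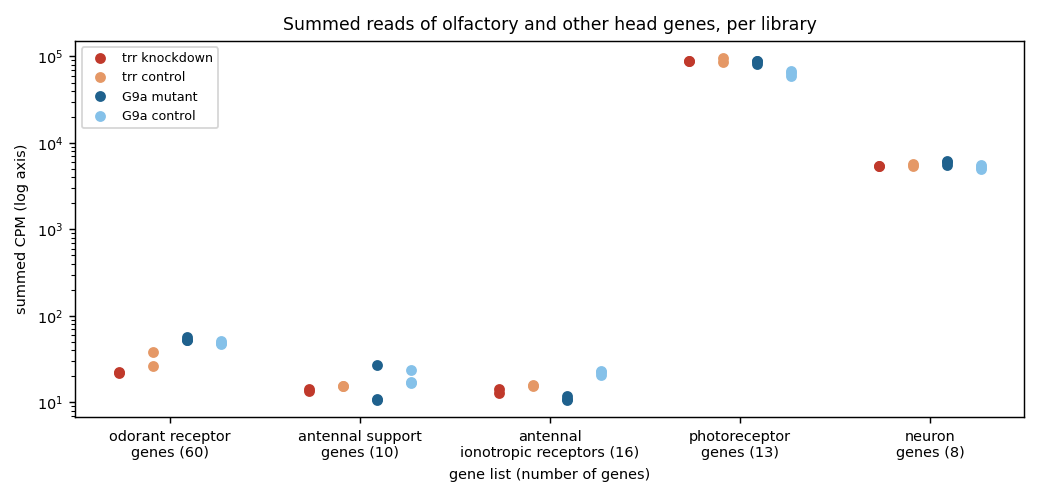
Summed CPM of gene lists (log axis) in each library (1 point per library), by group, for the odorant receptor genes, antennal support genes, antennal ionotropic receptors, photoreceptor genes and neuronal genes. The 3 olfactory lists sit between 10.6 and 56.7 CPM, and the photoreceptor list at 59009 CPM or above.

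In the *trr* experiment, 22 of the 60 members had the 10 counts, summed over the 4 libraries, that were asked for before a test. None was called at an adjusted p-value (p-adj) under 0.05 and a fold change over 1.5 by edgeR's quasi-likelihood test, where 1.03% of the 11416 genes tested were called. At an unadjusted p under 0.05 there were 4 members, where 19.2% of all genes passed. Of these 1 was higher, where 8.27% of all genes were, and 3 were lower, where 11% were. DESeq2 called 1 member, *Or43b*. The median log2 fold change of the 22 members was 0.10, with 12 above and 10 below 0, compared with 0.00078 over all genes tested.

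*Or43b* had 171 and 138 counts in libraries labelled *trr* knockdown, against 421 and 217 in *trr* controls. Its level averaged 5.65 ± 0.59 CPM in libraries labelled *trr* knockdown and 11.8 ± 5.66 CPM in *trr* controls (SD, n = 2 each). The groups did not overlap, but the controls differed from each other more than the nearer control differed from either library labelled *trr* knockdown. The log2 fold change was -1.04 (SE 0.33, 95% interval -1.85 to -0.24), with an edgeR p-adj of 0.187. Its p-adj ranged from 3.19e-20 to 0.916 over the alternative analyses. Without *trr* control replicate 2, the lower of the controls, *Or43b*, *Or63a* and *Or71a* were called, 3 of 21 members tested, where 2009 of 11198 genes were called, compared with 118 with all 4 libraries. Only 1 control remained in that fit, and the log2 fold change of *Or43b* was -1.44. *Or43b* overlaps *Cul1* in the Release 6 annotation, and *Cul1* had a log2 fold change of -0.050 (edgeR p-adj = 0.751).

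*Or63a*, known from larval neurons, was also below both *trr* controls in both libraries labelled *trr* knockdown. It had 105 and 121 counts in libraries labelled *trr* knockdown, against 245 and 162 in *trr* controls. The log2 fold change was -0.84 (SE 0.26, 95% interval -1.47 to -0.20) with an edgeR p-adj of 0.182, so the call threshold was missed although the libraries did not overlap. *trr* control 1 was the highest of the 4 libraries for both genes. *Or63a* overlaps no other gene in the annotation. The summed reads of 6 fat body and yolk genes showed the same split. The sums were 5351 and 5548 CPM in libraries labelled *trr* knockdown, against 9504 CPM in *trr* control 1 and 7284 CPM in *trr* control 2. Only the 3 yolk protein genes had a log2 fold change below 0. It was above 0 for *Fbp1* (0.51), *Lsp2* (0.098) and *apolpp* (0.10). The yolk protein genes *Yp1* and *Yp3*, with log2 fold changes of -1.15 and -0.96 (edgeR p-adj 0.0380 and 0.0480), were the only genes of the 10 lists that were called in the *trr* experiment. The part of this tissue in the receptor values was not tested.

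The co-receptor gene *Orco* had 88 and 61 counts in libraries labelled *trr* knockdown, against 104 and 106 in *trr* controls. This was 2.72 ± 0.57 CPM in libraries labelled *trr* knockdown and 3.84 ± 0.073 CPM in *trr* controls (SD, n = 2 each). The log2 fold change was -0.49 (SE 0.24, 95% interval -1.07 to 0.089, edgeR p-adj = 0.308), and the interval includes both no change and a level under that of the controls by more than the fold threshold. In bulk heads, fewer cells of a type and less RNA per cell cannot be told apart, here or for any other member.

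The other members with most reads did not pass the test in the *trr* experiment. *Or45a* had 23 and 18 counts in libraries labelled *trr* knockdown, against 14 and 10 in *trr* controls, with a log2 fold change of 0.77 (95% interval -0.19 to 1.73, edgeR p-adj = 0.328). *Or45b* had 62 and 53 counts in libraries labelled *trr* knockdown, against 51 and 53 in *trr* controls, with a log2 fold change of 0.15 (95% interval -0.42 to 0.72, edgeR p-adj = 0.744). *Or45b* had the smallest standard error of the 22 members (0.23), and its interval leaves out a 2-fold change either way (a log2 change of 1). *Or2a* and *Or22b*, the other members under an unadjusted p of 0.05, are named after their values were seen. *Or2a*, of trichoid and intermediate sensilla, had 6 and 5 counts in libraries labelled *trr* knockdown, against 14 and 12 in *trr* controls. *Or22b*, expressed with *Or22a* in a basiconic neuron that responds to fruit esters, had 14 and 8 counts in libraries labelled *trr* knockdown, against 3 and 3 in *trr* controls. Their edgeR p-adj were 0.246 and 0.201.

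**Figure D3:**
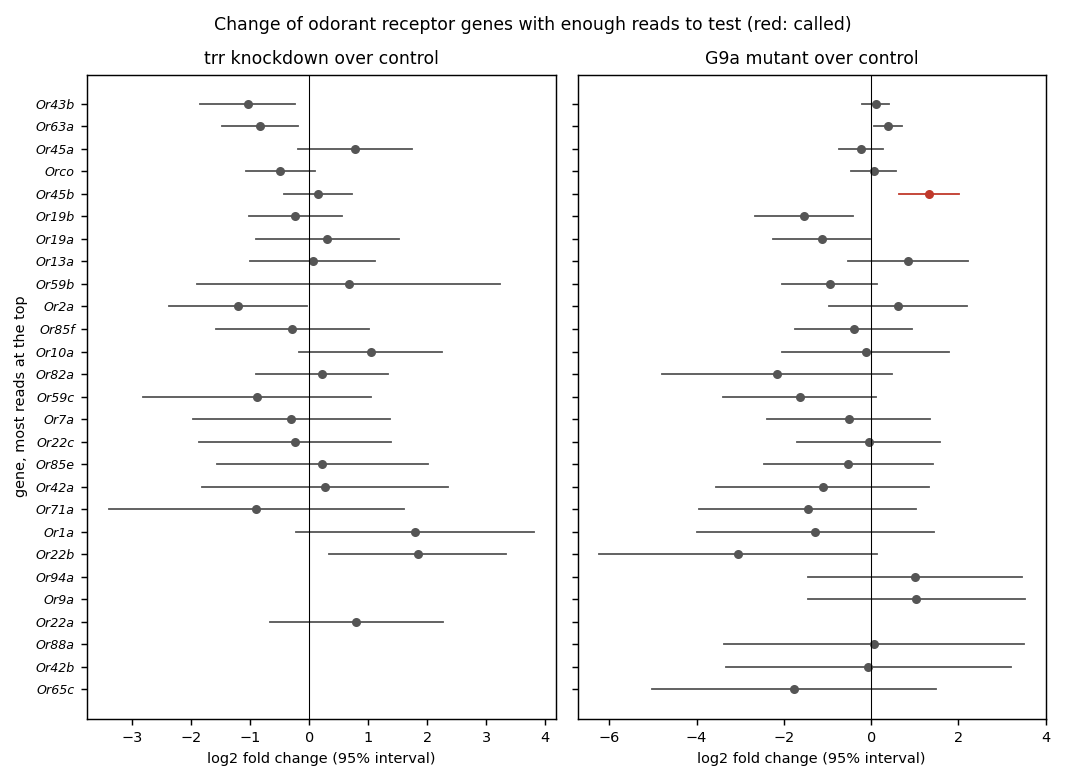
Log2 fold change (points) with its 95% interval (lines) for every odorant receptor gene with enough reads to test, in libraries labelled *trr* knockdown over control (left) and *G9a* mutant over control (right). Genes are ordered by reads, most at the top. *Or45b* in the *G9a* experiment, at 1.33, is the one called member (red), and intervals widen toward the genes with few reads.

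In the *G9a* experiment, 26 members could be tested and 1 was called, *Or45b*, which was higher. Of the 12329 genes tested, 7.56% were called, 1.99% as higher and 5.57% as lower. At an unadjusted p under 0.05 there were 4 members, where 25.5% of all genes passed. The median log2 fold change of the 26 members was -0.32, with 9 above and 17 below 0, compared with 0.041 over all genes tested.

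*Or45b*, a receptor known from the larval dorsal organ, had 85, 145 and 109 counts in libraries labelled *G9a* mutant, against 26, 34 and 50 in *G9a* controls. Its level was 4.76 ± 0.85 CPM in libraries labelled *G9a* mutant and 1.84 ± 0.55 CPM in *G9a* controls (SD, n = 3 each). Every library labelled *G9a* mutant was above every *G9a* control, and the *G9a* controls, at 1.44 to 2.47 CPM, spanned the levels of the *trr* experiment, where all 4 libraries were between 1.90 and 2.20 CPM. The log2 fold change was 1.33 (SE 0.30, 95% interval 0.65 to 2.02, fold 2.52), with an edgeR p-adj of 0.0261. The direction held in all alternatives, with p-adj from 0.00299 (DESeq2) to 0.186 (glmTreat against the fold threshold, where the call was lost). The call was also lost with scaling to antennal genes, and without *G9a* mutant replicate 2, *G9a* control replicate 1 or *G9a* control replicate 2, where the log2 fold change was 1.19, 1.19 and 1.24.

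The gene next to *Or45b* in the Release 6 annotation, *Alp6*, named as an alkaline phosphatase gene, rose too. *Alp6* was picked out after its values were seen. It had 164, 350 and 245 counts in libraries labelled *G9a* mutant, against 76, 65 and 92 in *G9a* controls, and a log2 fold change of 1.39 (SE 0.25, edgeR p-adj = 0.0108). Library 2 labelled *G9a* mutant was the highest for both genes. On the other side, *Not1* had a log2 fold change of -0.27 (SE 0.11, edgeR p-adj = 0.186). *Or45b* also overlaps the antisense RNA gene *asRNA:CR45281*, which was not analysed here, and the library protocol names no step that marks strand, so reads of *Or45b* and of an antisense partner cannot be told apart.

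**Figure D4:**
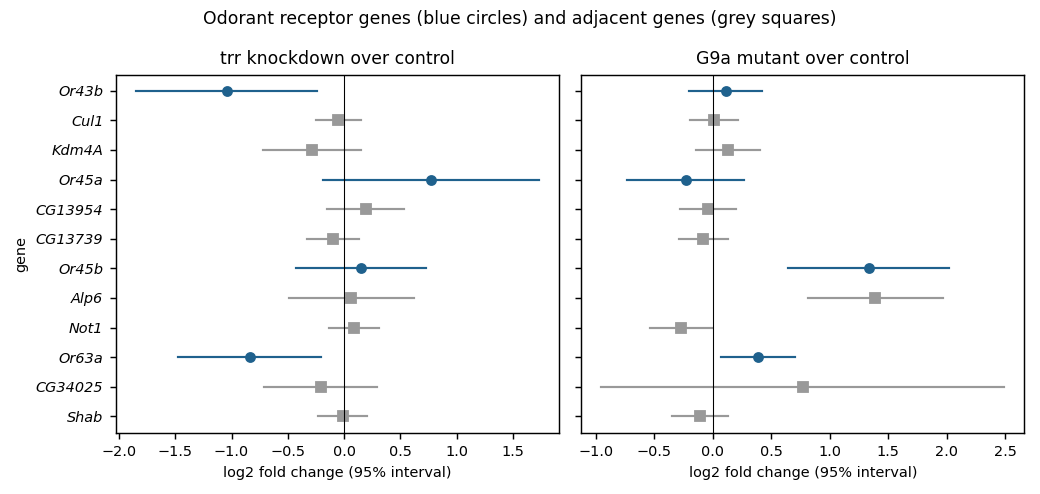
Log2 fold change with its 95% interval for *Or43b*, *Or45a*, *Or45b* and *Or63a* (blue circles) and for genes that overlap or adjoin each of them (grey squares below it), in libraries labelled *trr* knockdown over control (left) and *G9a* mutant over control (right). *Or45b* at 1.33 and *Alp6* at 1.39 lie together on the right, and *Cul1*, which overlaps *Or43b*, lies at -0.050 on the left.

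*Or19b* (FBgn0062565) and *Or19a* (FBgn0041626), nearly identical receptor genes of trichoid sensilla, had the lowest log2 fold changes of the 9 named members in the *G9a* experiment. *Or19b* had 9, 9 and 16 counts in libraries labelled *G9a* mutant, against 16, 38 and 29 in *G9a* controls (log2 fold change -1.53, SE 0.49, edgeR p-adj = 0.0900). *Or19a* had 7, 17 and 12 counts in libraries labelled *G9a* mutant, against 19, 19 and 26 in *G9a* controls (log2 fold change -1.13, SE 0.48, edgeR p-adj = 0.189). Neither passed the test alone. The groups did not overlap in CPM for either gene.

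Since only uniquely mapped reads were counted, reads shared by these copies were lost or could be split between them, and their separate values are uncertain. Summed as 1 gene, a choice made after seeing the data, they had 16, 26 and 28 counts in libraries labelled *G9a* mutant, against 35, 57 and 55 in *G9a* controls. The log2 fold change of the sum was -1.35 (SE 0.34, 95% interval -2.13 to -0.57), with an edgeR p-adj of 0.0412, which passes the threshold. In the *trr* experiment the sum was 48 and 59 counts in libraries labelled *trr* knockdown, against 40 and 69 in *trr* controls, with a log2 fold change of -0.016 (95% interval -0.85 to 0.82).

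The other members with the most reads did not pass the test in the *G9a* experiment. *Or43b* had 311, 502 and 479 counts in libraries labelled *G9a* mutant, against 332, 333 and 307 in *G9a* controls. Its log2 fold change was 0.11 (95% interval -0.20 to 0.42, edgeR p-adj = 0.649). *Orco* had 97, 115 and 97 counts in libraries labelled *G9a* mutant, against 75, 104 and 68 in *G9a* controls, a log2 fold change of 0.056 (95% interval -0.47 to 0.58, edgeR p-adj = 0.903). *Or45a* had 147, 138 and 159 counts in libraries labelled *G9a* mutant, against 131, 120 and 181 in *G9a* controls, a log2 fold change of -0.23 (95% interval -0.74 to 0.27, edgeR p-adj = 0.539). The groups overlapped in CPM for all 3 genes.

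*Or63a* had 312, 376 and 316 counts in libraries labelled *G9a* mutant, against 216, 227 and 190 in *G9a* controls. The libraries did not overlap, but the log2 fold change of 0.39 (SE 0.14, 95% interval 0.071 to 0.70) gave an edgeR p-adj of 0.124. *Or59b*, which responds to acetate esters in a large basiconic sensillum, had 12, 10 and 16 counts in libraries labelled *G9a* mutant, against 22, 23 and 16 in *G9a* controls (log2 fold change -0.95, edgeR p-adj = 0.255). *Or13a*, a receptor for mushroom alcohol, had 7, 27 and 21 counts in libraries labelled *G9a* mutant, against 9, 7 and 8 in *G9a* controls (log2 fold change 0.84, edgeR p-adj = 0.416).

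**Figure D5:**
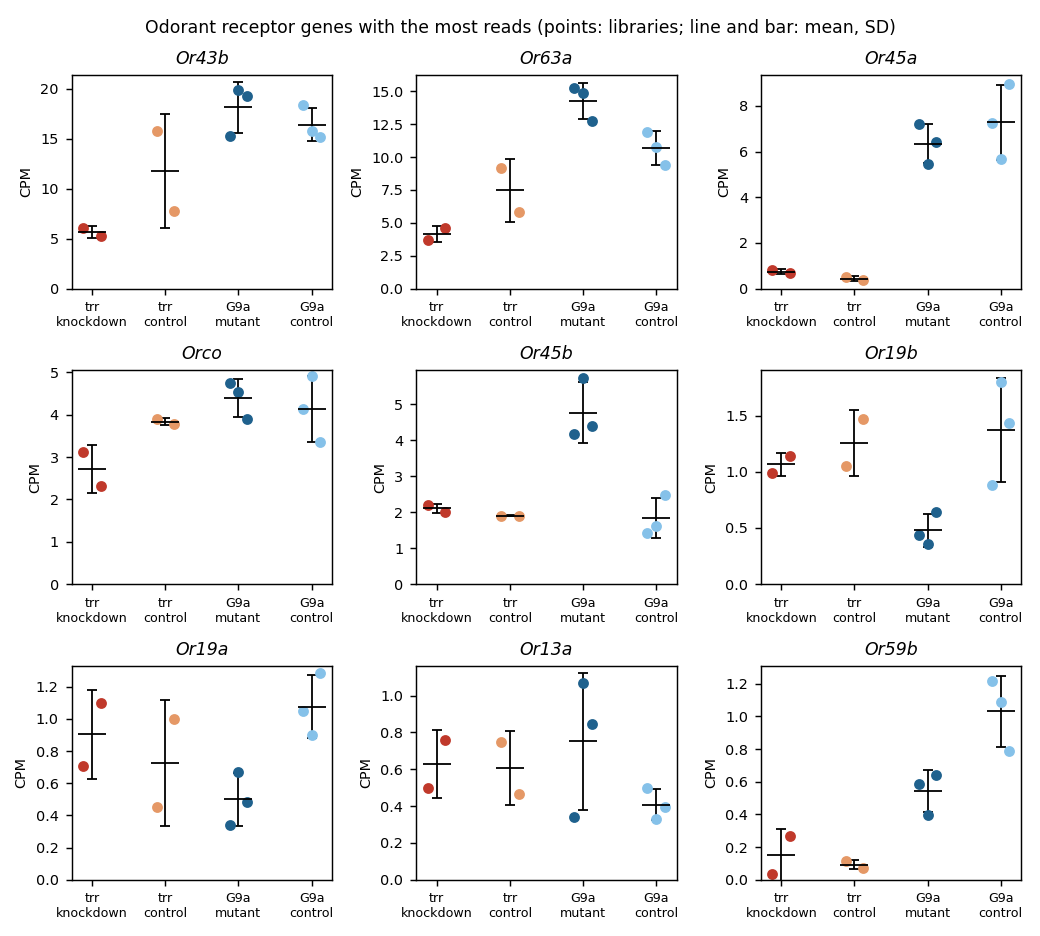
CPM of the 9 named odorant receptor genes in each library (points), with the mean (line) and SD (bar) of each group, in libraries labelled *trr* knockdown (n = 2), *trr* controls (n = 2), libraries labelled *G9a* mutant (n = 3) and *G9a* controls (n = 3). *Or45b* is higher in libraries labelled *G9a* mutant (4.76 CPM) than in the other groups, and *Or45a* is at 0.36 to 0.82 CPM in the *trr* experiment and at 5.46 to 8.94 CPM in the *G9a* experiment.

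Other olfactory genes were measured from lists of known function. Of the 10 antennal support and odorant-binding genes, 9 could be tested in the *G9a* experiment and 0 were called by edgeR or DESeq2, with 0 at an unadjusted p under 0.05 and a median log2 fold change of -0.23. They were uneven among libraries labelled *G9a* mutant. *Obp83a*, the gene of a binding protein of trichoid sensilla, had 9, 21 and 110 counts there, against 57, 76 and 46 in *G9a* controls. Of the 16 antennal ionotropic receptors, 10 could be tested and 4 were called, all lower in the libraries labelled *G9a* mutant. The median of the 10 was -1.16.

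Lists of other cell types moved in the same comparison. Of 13 photoreceptor genes, 12 had a log2 fold change above 0 and 5 were called higher, with sums of 82808 to 88856 CPM in libraries labelled *G9a* mutant, against 59009 to 67704 CPM in *G9a* controls. The 6 glial genes and the 6 muscle genes tested were all below 0, and 1 of each list was called lower. Of the 6 fat body and yolk genes, 5 were below 0 and 2 were called lower. The part of these tissues in the change of *Or45b* or of any other receptor gene was not tested.

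*Ir75b*, a receptor gene of coeloconic neurons, had 2, 0 and 4 counts in libraries labelled *G9a* mutant, against 29, 51 and 27 in *G9a* controls. The log2 fold change was -2.02 for *Ir75a*, -1.34 for *Ir93a* and -0.98 for the co-receptor gene *Ir76b*. In the *trr* experiment, 7 antennal support genes and 10 ionotropic receptors were tested and 0 were called by edgeR. At an unadjusted p under 0.05 there were 1 antennal support gene and 2 ionotropic receptors, and DESeq2 called 1 gene of each list. Picked out after their values were seen, *a10* had 16 and 20 counts in libraries labelled *trr* knockdown, against 83 and 59 in *trr* controls. *Ir92a* had 1 and 0, against 14 and 28. Their log2 fold changes were -1.96 and -5.07 (edgeR p-adj 0.0646 and 0.0805). Of the genes tested, 2 support genes and 3 ionotropic receptors were above 0. The ionotropic receptors are a separate family, and whether the amount of antennal tissue differed between groups was not tested. With libraries scaled to the summed antennal support genes in place of all genes, the log2 fold change of *Or45b* was 1.86 but the call was lost (edgeR p-adj = 0.115).

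The effects in the *trr* and *G9a* experiments were compared with each other in 1 fit over all 10 libraries. Of 29 members tested, 1 was called, *Or63a*, where 9.26% of the 12871 genes tested were called and 3.77% in the same direction. Its log2 fold change in the *trr* experiment lay below that in the *G9a* experiment by a difference of -1.22 (SE 0.28, 95% interval -1.85 to -0.59, edgeR p-adj = 0.0225). The call was lost without 5 of the 10 libraries taken in turn, namely *trr* knockdown replicate 1 or 2, *trr* control replicate 1 and *G9a* control replicate 2 or 3. *Or43b* had a difference of -1.15 (SE 0.34, edgeR p-adj = 0.0616) and was called by DESeq2. For *Or45b* the difference was -1.18 (SE 0.42, edgeR p-adj = 0.111), so its change in the *G9a* experiment was not shown to differ from that in the *trr* experiment.

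The controls of the experiments were set against each other as well. Of 29 members, 3 were called between *trr* controls and *G9a* controls, where 23.2% of all genes tested were called. Of the 3, 1 was higher in *trr* controls, where 14% of all genes were, and 2 were lower, where 9.21% were. *Or45a* had 14 and 10 counts in *trr* controls, against 131, 120 and 181 in *G9a* controls. Its log2 difference was -3.94 (SE 0.32, 95% interval -4.66 to -3.23), with an edgeR p-adj of 1.03e-05, and it was called in all the alternatives. *CG13954* and *CG13739*, the genes that overlap *Or45a*, differed by -0.21 and -0.084 on the log2 scale and were not called.

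*Or59b* had 3 and 2 counts in *trr* controls, against 22, 23 and 16 in *G9a* controls (log2 difference -3.33, SE 0.83, edgeR p-adj = 0.0106). Without *trr* control replicate 2, and with scaling to the antennal support genes, it was not called. *Or22a* had 4 and 4 counts in *trr* controls, against 0 in all 3 *G9a* controls. Its pooled level in *trr* controls, 0.146 CPM, was 2.90 times the level of 3 counts over the *G9a* control group. This value leaves out the counting error of the 8 reads and the spread between libraries, so it is not a lower limit. The call of *Or22a* was lost under most alternatives. The sets of controls differ in genotype and in experiment, which cannot be told apart. The 7SL RNA of the signal recognition particle took between 0.0250% and 0.0384% of gene counts in the *trr* experiment and between 0.611% and 1.66% in the *G9a* experiment.

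*Orco* itself ranged from 2.31 to 4.92 CPM over the 10 libraries. The genes whose log2 CPM was most like that of *Orco* over the 10 libraries, of 8861 genes with a mean of at least 50 counts, were *pea* (Pearson r = 0.937), *PIG-A* (0.920), *DNAlig4* (0.908), *Vps8* (0.897) and *synr* (0.893). Odorant receptor genes were left out before this ranking, so none could be among them. These correlations describe 10 libraries that share depth and experiment.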

How the data were processed

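RNA was measured in 10 libraries of adult heads. Reads of 36 bp were mapped by the authors to the dm3 genome (BWA 0.6.1, at most 1 mismatch), and HTSeq-count tallied the unique ones on each gene. The deposited values are these raw counts. The strand setting was not given in the sources used here. Binding sites of trr were not used here. The 5 summary lines in each file do not name genes and were not tested; they include reads outside genes (9.29% to 18.0% of a file) and ambiguous reads (1.58% to 2.55%).

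Symbols, and which genes overlap or adjoin, came from a Release 6 table, which named 15002 of the 15682 genes. Its coordinates were used only to find which genes overlap or adjoin. Of the members, 18 overlap another gene there. Of 80 list genes, 79 were matched.

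Genes with at least 10 counts summed over a comparison were tested in R 4.3.3 with edgeR 4.0.16 (TMM, quasi-likelihood test, Benjamini-Hochberg adjustment over all genes), each experiment alone, and over all 10 libraries for the difference of effects and the controls. A call needed p-adj below 0.05 together with a change of more than 1.5-fold. Standard errors were taken from the F statistic. Replicates are described as biological, with 2 or 3 per group, so p-values measure the spread between few libraries.

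Named members are *Orco*, members called in either experiment, the 8 with the highest mean CPM, and in each experiment the 3 largest changes each way with a mean of at least 20 counts in the higher group. Members and lists were chosen with earlier results of these data known. Same-numbered *G9a* libraries deviated together from their group means (correlations 0.32, 0.23 and 0.53). However, *G9a* mutant 2 correlated more with *G9a* control 1 (0.28), and mutant 1 also correlated with control 2 (0.16). Whether the numbers pair the libraries is therefore not shown, and no source names a shared batch. The *G9a* values given are from the fit without the block.

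Alternatives were RLE size factors, DESeq2 1.42.0, filterByExpr, no filter, the adjusted p-value alone, glmTreat, all libraries in 1 fit, the replicate block, antennal scaling, other detection limits, and leaving out each library. Tested on simulated data with 200 changed genes, the code recovered 181 over 11301 genes in the *trr* design, with 11 false calls among 192. It recovered 139 over 12110 genes in the *G9a* design, with 5 false calls among 144. These values check the code over all genes. Recovery at the read levels and fold changes of the odorant receptor genes was not tested.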

Additional observations from a re-analysis of the deposited data

Results flagged for a closer look

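The effects of the *trr* and *G9a* experiments on *Or63a* differed from each other by a test of the difference itself, in the fit as reported. Of the 12871 genes tested, 9.26% were called in the same way. *Or63a* averaged 4.16 ± 0.61 CPM in libraries labelled *trr* knockdown and 7.48 ± 2.39 CPM in *trr* controls (SD, n = 2 each), and 14.3 ± 1.38 CPM in libraries labelled *G9a* mutant and 10.7 ± 1.27 CPM in *G9a* controls (SD, n = 3 each). The difference of the log2 fold changes was -1.22. Neither effect alone passed the test. The call of the difference was lost with glmTreat, with antennal scaling and without some of the libraries taken in turn.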

How the results depend on the processing

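In the *trr* experiment, where 0 members were called, DESeq2 called 1 and the fit with the replicate number as a replicate block called 1, *Or43b* in both. Leaving out 1 library gave between 0 and 3 calls. Calls over all genes moved as well, with 118 in the fit as reported, 496 with DESeq2, 819 with the block and 2009 without *trr* control replicate 2. The *trr* numbers name no shared batch and same-numbered libraries deviated in opposite directions (correlation -0.19). With the crossed replicate block, added after seeing the data, 2 members and 902 genes in all were called. In the *G9a* experiment, with 1 call, filterByExpr and the fit of all 10 libraries called 2, adding *Or19b*. Summing *Or19a* and *Or19b*, chosen after seeing the data, also gave 2. glmTreat and antennal scaling called 0, and leaving out 1 library gave 0 or 1. The *G9a* block changed no call.

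For the difference of the effects, with 1 call, DESeq2 called 2, glmTreat 0 and antennal scaling 0, and leaving out 1 library gave between 0 and 2. Between the controls, with 3 calls, antennal scaling gave 1 and leaving out 1 library gave between 1 and 4. The cause of these changes was not tested. For the *G9a* experiment, the difference and the controls, calls over all genes under each alternative are not given here. Whether the counts of called members moved with those of all genes is therefore not shown.

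Counting a member as detected above 0 counts gave 25 members in libraries labelled *trr* knockdown, 26 in *trr* controls, 18 in libraries labelled *G9a* mutant and 23 in *G9a* controls. A minimum of 10 counts gave 10 in libraries labelled *trr* knockdown, 10 in *trr* controls, 7 in libraries labelled *G9a* mutant and 8 in *G9a* controls.

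Of the log2 fold changes of the 9 named members, 161 of 170 values under alternatives other than leaving out a library kept their direction and side of the threshold. Antennal scaling turned *Or45a* in the *G9a* experiment to 0.24. Leaving out 1 library turned the sign of some values near 0. The ranges were -0.50 to 0.057 for *Or19b*, -0.19 to 1.03 for *Or19a* and -0.27 to 0.39 for *Or13a* in the *trr* experiment, and -0.083 to 0.19 for *Orco* in the *G9a* experiment.

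Depth limits the members more than most genes: 37 of 60 averaged under 3 counts, and values for those rest on few reads.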
